A study of Homo sapiens with 8 samples.

Results

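Mitochondrial DNA encodes 7 subunits of complex I, the NADH dehydrogenase of the respiratory chain, and the mRNAs of these subunits (MT-ND1, MT-ND2, MT-ND3, MT-ND4, MT-ND4L, MT-ND5 and MT-ND6) were examined in cells given a microRNA mimic. They were taken by symbol from a table of read counts for 15982 genes, and each of the 7 had a row and passed the filter on low counts, which left 15905 genes. The table comes from RNA-seq of 143BTK-, an established human osteosarcoma line that lacks thymidine kinase, after removal of ribosomal RNA. In 4 libraries the cells had received 80 pmol of a mirVana mimic (a synthetic double-stranded RNA) of the microRNA hsa-miR-101-3p, and in the other 4 the same amount of the mirVana negative control mimic. Both groups grew without glucose in 10 mM galactose, 5% dialysed serum and 50 µg/mL uridine, were transfected again at 48 h and were harvested at 120 h, so that all values describe cells in galactose after 2 rounds of lipid transfection. Per the labels the libraries stem from 4 independent transfections, and they are numbered 1 to 4 in each group.

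Complex I takes electrons from NADH and passes them to ubiquinone while it pumps protons across the inner mitochondrial membrane. Its membrane arm is built around the subunits of mitochondrial DNA, and its other subunits are encoded in the nucleus. Each strand of mitochondrial DNA is transcribed into a long precursor, from which the mRNAs are cut, mostly at the tRNAs that lie between them. MT-ND6 is the only mRNA of the light-strand transcript, and the other 6 complex I mRNAs belong to the heavy-strand transcript. Galactose slows glycolysis, so that cells depend on respiration for energy.

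The sequences below show how the 7 mRNAs are laid out and how the light-strand mRNA differs from the others. They are the last 24 bases of each annotated transcript (GENCODE 29, GRCh38), 5′ to 3′, with the stop codon, or the part of one that the transcript holds, in capitals.
MT-ND1: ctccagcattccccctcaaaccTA
MT-ND2: ccccttttatactaataatcttaT
MT-ND3: aaaaaggattagactgaaccgaaT
MT-ND4L: aacctaaacctactccaatgcTAA
MT-ND4: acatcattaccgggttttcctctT
MT-ND5: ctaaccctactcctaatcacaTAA
MT-ND6: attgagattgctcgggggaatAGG
In 4 of the 7, MT-ND1, MT-ND2, MT-ND3 and MT-ND4, the annotated transcript stops within the stop codon, which polyadenylation is known to complete. MT-ND4L and MT-ND4 share 7 bases, in capitals in the next run (chrM:10750-10776, plus strand), and are known to stay together on one mRNA, so reads across that junction could be given to either gene.
MT-ND4L to MT-ND4: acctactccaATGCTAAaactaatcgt
The light-strand transcript has the opposite base bias: guanine makes up 35.6% and cytosine 7.05% of MT-ND6, against 9.50 to 12.1% guanine and 29.5 to 35.98% cytosine in the 6 heavy-strand members. The next run is the start of MT-ND6, with its start codon in capitals.
MT-ND6: ATGatgtatgctttgtttctgttg

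The mimic itself carries the following sequence (RefSeq), with the seed, bases 2 to 8, in capitals.
hsa-miR-101-3p: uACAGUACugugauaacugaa
The seed match GTACTGT and its 6-base core TACTGT were searched in all 13 mRNAs of mitochondrial DNA, and neither occurred in any of them on the mRNA's own strand. On the other strand, the core was absent from the 7 complex I mRNAs and occurred once each in MT-CO1 and MT-CYB. For comparison, the first bases of nuclear protein-coding transcripts, cut to the same lengths, held the core on their own strand in 2.3% (length of MT-ATP8) to 25.9% (length of MT-ND5) of cases over the 13 lengths, and in 3.5% (MT-ND4L) or more over the 7 complex I lengths. The absence of a match says only that these letters do not occur in the annotated transcripts.

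Total counts per library ran from 17603054 to 20160267, and the 7 mRNAs together took 0.0388 to 0.0672% of them. EZH2, a described target of miR-101, averaged 28.1 CPM (counts scaled to the normalised library size) with the mimic and 45.7 CPM in the control, a log2 fold change of -0.70 at an edgeR adjusted p of 0.00561 (0.0809 with the counts of replicates 1 and 2 summed in each group). Of 12 cell type markers 8 had a row (COL1A2, ALPL, PTPRC and CD68 had none), and their summed level was 1303 to 2576 CPM with the mimic and 1308 to 1828 CPM in the control. Among them the mesenchymal gene VIM stood at 476 to 899.5 CPM and the endothelial gene PECAM1 at 0.860 to 3.96 CPM. The keratins KRT18 and KRT8 stood at 229.3 to 472.8 CPM and 49.65 to 143.1 CPM, and SPARC at 294.95 to 1442.45 CPM. COL1A1 (3.96 to 17.87 CPM), EPCAM (5.11 to 17.01 CPM) and RUNX2 (9.22 to 31.37 CPM) were lower than these keratins. RUNX2 of the osteoblast lineage and the epithelial keratin KRT8 rose with the mimic (log2 fold change 0.93 each, edgeR adjusted p = 0.0269 and 0.0114). With replicates 1 and 2 summed neither was called (edgeR adjusted p = 0.132 and 0.0657), and RUNX2 missed the threshold in 5 of 8 fits without 1 library. With the replicate number as a block term 5 of the 8 markers were called higher, COL1A1, SPARC and EPCAM being added (edgeR adjusted p = 0.00467, 0.00977 and 0.0115). Without the block these 3 were not called (edgeR adjusted p = 0.0619, 0.395 and 0.137). With replicates 1 and 2 summed they were not called either (edgeR adjusted p = 0.197, 0.607 and 0.306). The share of all tested genes called higher with the block is not given here, so that count has no background beside it. The part of these markers in the results below was not tested. Replicates 1 and 2 lay closer to each other than to the other libraries of their group: the SD over genes of their log2 difference was 0.256 with the mimic and 0.28 in the control, against 0.356 to 0.62 for other pairs. The calls of the complex I mRNAs are therefore also given with replicates 1 and 2 summed and from either set alone, and the other calls with replicates 1 and 2 summed. Whether these 2 came from separate cultures is not given for single libraries, so p-values measure only the spread between the libraries. A lower level in bulk RNA cannot tell less RNA per cell from fewer cells that make it.

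All 7 complex I mRNAs had a negative log2 fold change, as had 50.7% of all tested genes, and their median was -0.42 against -0.01 for all tested genes. The 2 that fell were MT-ND1 and MT-ND2, the first mRNAs of the heavy strand after the ribosomal RNAs. MT-ND1 fell 1.48-fold and MT-ND2 fell 1.53-fold, and none of the 7 rose. MT-ND3, MT-ND4L, MT-ND4, MT-ND5 and MT-ND6 did not pass the test, with log2 fold changes from -0.46 (MT-ND3) to -0.21 (MT-ND6). The share called lower was thus 2 of 7, beside 3.32% of all tested genes. A gene was called at an edgeR adjusted p under 0.05 over all tested genes. Together the 7 took 0.0466, 0.0472, 0.0388 and 0.0391% of all counts in mimic replicates 1 to 4 and 0.0672, 0.0571, 0.0547 and 0.0472% in the control. On these total counts the lowest control library (replicate 4) lay just above the highest mimic library (replicate 2). The order depends on leaving out the scaling used for CPM, whose factor was 1.065 for control replicate 4 and 1.025 for mimic replicate 2. With that scaling the groups overlap in the sum of the 7.

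**Figure D1:**
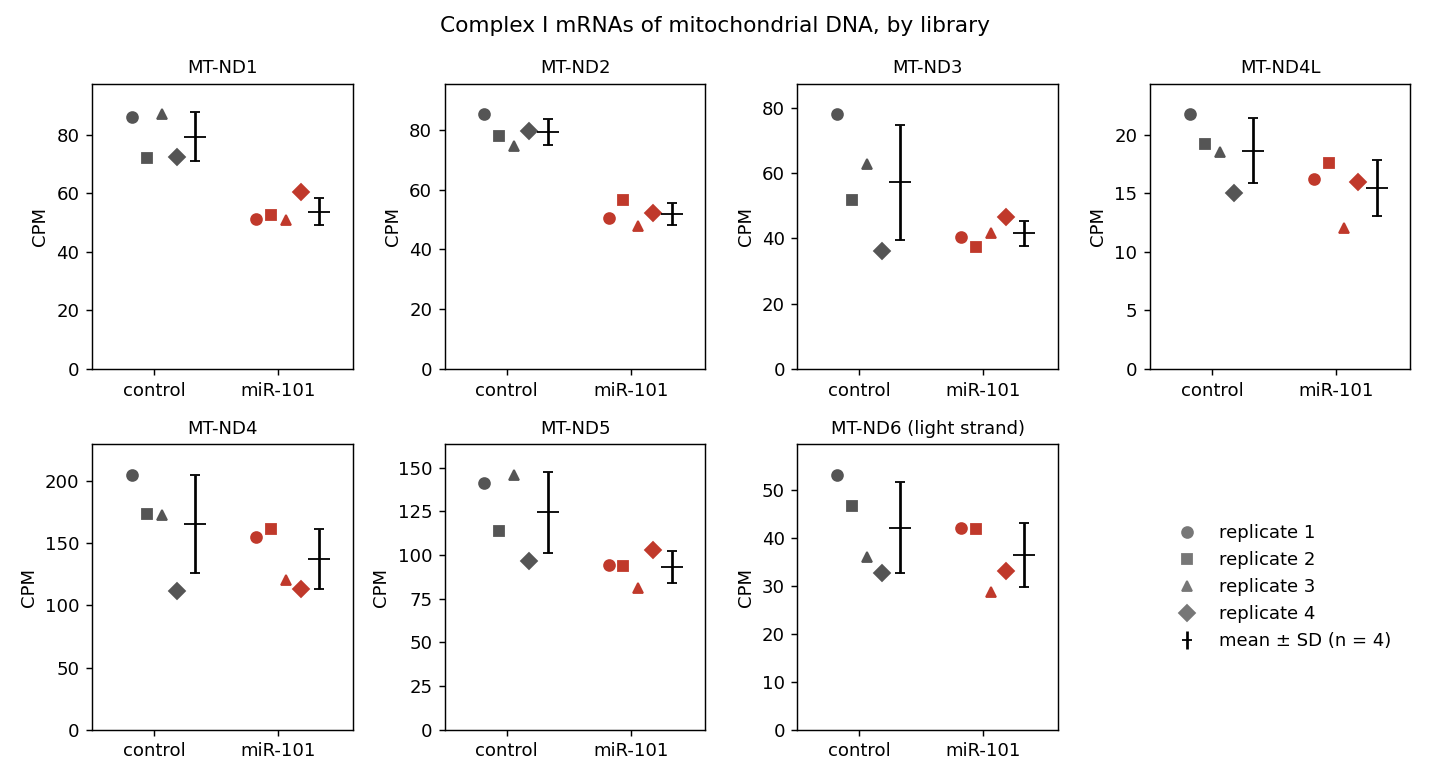
CPM (y axis from 0) of the 7 complex I mRNAs in each library, by group, with a symbol for each replicate number and the mean ± SD of 4 libraries. The groups stand apart in MT-ND1 and MT-ND2 and overlap in the other 5, where control replicate 4 is the lowest control library.

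MT-ND1 (chrM:3307-4262, plus strand) encodes a subunit at the heel of the membrane arm that helps form the ubiquinone site. Its level was 51.1, 52.5, 50.8 and 60.45 CPM in mimic replicates 1 to 4, against 86.0, 71.9, 87.0 and 72.3 CPM in the control. The highest mimic library lay below the lowest control library. The log2 fold change was -0.56 ± 0.109 (SE) with an edgeR adjusted p of 0.0129, and the mRNA was lower in 4 of 4 same-numbered pairs.

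MT-ND2 (chrM:4470-5511, plus strand) encodes one of the antiporter-like proton-pumping subunits. It stood at 50.4, 56.5, 47.8 and 52.1 CPM with the mimic and at 85.2, 78.0, 74.7 and 79.5 CPM in the control. This was the tightest separation among the members, with a coefficient of variation of 7.09% with the mimic and 5.52% in the control. The log2 fold change was -0.62 ± 0.095 with an edgeR adjusted p of 0.00444, again lower in 4 of 4 pairs. For 7.34% of all tested genes the groups were lower without overlap, and 16.5% were lower in 4 of 4 pairs. A nuclear copy, MTND2P28 (chromosome 1, 629640 to 630683), is identical to MT-ND2 at 98.4% of 1042 aligned bases, so reads can be shared between them. Its counts came to 3.95 to 7.17% of those of MT-ND2. It had a log2 fold change of -0.51 ± 0.188 (edgeR adjusted p = 0.143).

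MT-ND3 (chrM:10059-10404, plus strand) encodes a small subunit beside the ubiquinone site. It was even with the mimic, at 40.5, 37.5, 41.7 and 46.5 CPM, and spread widely in the control, at 78.1, 51.7, 62.8 and 36.04 CPM. The lowest of all 8 libraries was control replicate 4, and the mRNA was lower with the mimic in 3 of 4 pairs. Its log2 fold change was -0.46 ± 0.198 with an edgeR adjusted p of 0.202. Without control replicate 4 it was -0.63 and called (edgeR adjusted p = 0.0215).

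MT-ND4L (chrM:10470-10766, plus strand) and MT-ND4 (chrM:10760-12137, plus strand) lie on one mRNA, and MT-ND4 encodes a second antiporter-like subunit. MT-ND4L had 16.2, 17.6, 12.04 and 15.9 CPM with the mimic and 21.8, 19.2, 18.6 and 15.1 CPM in the control. MT-ND4 had 155.0, 161.0, 120.6 and 113.3 CPM against 204.9, 173.3, 172.7 and 111.2 CPM. In both genes replicates 1 to 3 were lower with the mimic and replicate 4 was not. Their log2 fold changes were alike, -0.27 ± 0.156 and -0.27 ± 0.184, with edgeR adjusted p of 0.337 and 0.427. MT-ND4L rests on the fewest reads of the 7, with 246 to 396 counts per library, where counting error alone is 5.58% of the mean.

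MT-ND5 (chrM:12337-14148, plus strand), the gene of the outermost antiporter-like subunit, stood at 94.1, 93.8, 80.9 and 102.9 CPM with the mimic and at 141.3, 113.6, 145.8 and 96.8 CPM in the control. Of the control libraries only replicate 4 reached the range of the mimic libraries. The log2 fold change was -0.42 ± 0.141, with an edgeR adjusted p of 0.106 and an unadjusted p of 0.0128. Without control replicate 4 it was -0.52 and called (edgeR adjusted p = 0.023).

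MT-ND6 (chrM:14149-14673, minus strand) encodes a small subunit of the membrane arm. Its level was 42.1, 41.7, 28.6 and 33.04 CPM with the mimic and 53.1, 46.6, 35.9 and 32.6 CPM in the control. It differed least of the 7 between the groups, with a log2 fold change of -0.21 ± 0.179 and an edgeR adjusted p of 0.532. Replicates 1 and 2 were above replicates 3 and 4 in both groups without overlap, by 0.44 (mimic) and 0.54 (control) on the log2 scale. The same order held for MT-ND4L and MT-ND4 in both groups and for none of the other 4 members in both, beside 11% of all tested genes. Whether counting used the strand is not given in the sources used here, so heavy-strand precursor that runs opposite to MT-ND6 could be counted in it.

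**Figure D2:**
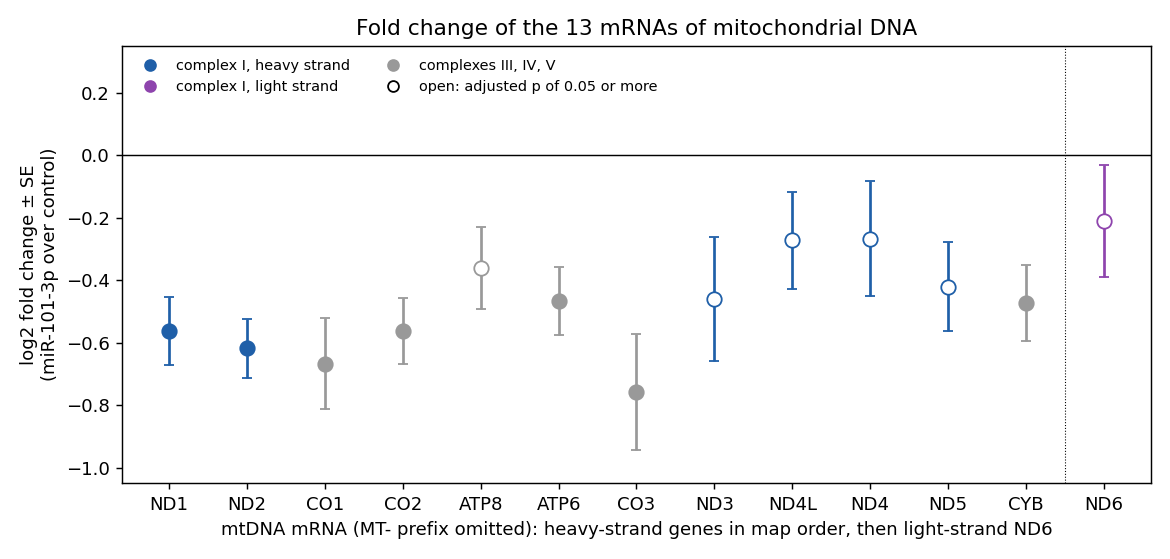
Log2 fold change (miR-101-3p over control, ± SE) of the 13 mRNAs of mitochondrial DNA, with heavy-strand genes in map order and the light-strand MT-ND6 last, and filled points for an edgeR adjusted p under 0.05. All 13 points lie below 0; among complex I genes MT-ND1 and MT-ND2 are filled, and MT-ND6 is the closest to 0.

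Heavy and light strand were compared within each library, by the counts of MT-ND6 per 100 counts of the 6 heavy-strand complex I mRNAs, a value that library size does not touch. This was 10.3, 9.96, 8.09 and 8.45 in mimic replicates 1 to 4 and 8.60, 9.18, 6.40 and 7.93 in the control. It was higher with the mimic in 4 of 4 same-numbered pairs, but the groups overlapped. The log2 ratio was higher by 0.20 ± 0.142 (SE), and the exact permutation test (two-sided, 70 arrangements) gave p = 0.2. The smallest p that this test can give is 0.0286. Within pairs the differences were 0.26, 0.12, 0.34 and 0.09, a mean of 0.20 ± 0.059 (SE of the 4 pair differences), which is a smaller error than that between unpaired libraries. The exact sign-flip p for the pairs was 0.125, the smallest that 4 pairs allow, so the paired test could not have passed. The unpaired test did not separate the groups, and the paired design is too small to decide. If counting ignored the strand, heavy-strand precursor opposite to MT-ND6 could be counted in it, and the ratio would not fully separate the strands.

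Against single heavy-strand members, a choice made after the data were seen, the log2 ratio of MT-ND6 was higher with the mimic by 0.42 ± 0.178 for MT-ND2 and by 0.36 ± 0.226 for MT-ND1, in 4 of 4 pairs each. For MT-ND4 and MT-ND4L it was higher by 0.05 ± 0.122 and 0.07 ± 0.103, in 2 of 4 pairs each. For MT-ND3 and MT-ND5 it was higher by 0.21 each, in 3 of 4 pairs. The two-sided exact permutation p ran from 0.0571 (MT-ND2) to 0.686 (MT-ND4), and from 0.343 to 0.686 adjusted over the 6 ratios. No single ratio passed the test.

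**Figure D3:**
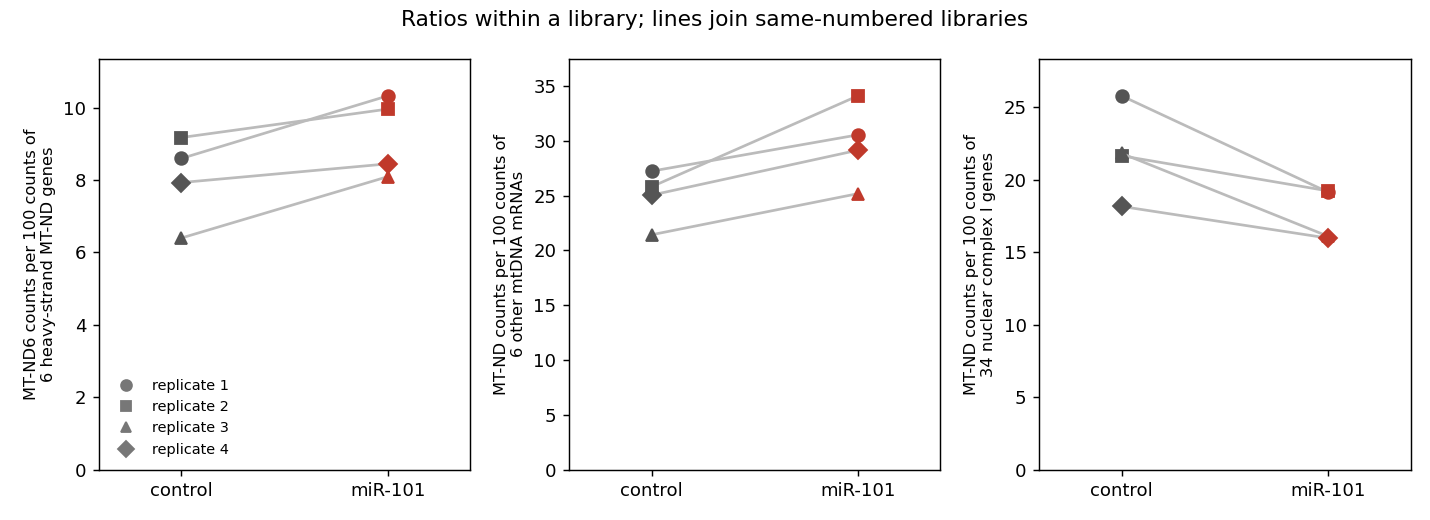
Ratios of counts within each library (y axes from 0), with lines that join same-numbered libraries: MT-ND6 to the 6 heavy-strand complex I mRNAs, the 7 complex I mRNAs to the 6 other mRNAs of mitochondrial DNA, and the 7 to 34 nuclear complex I genes. The first 2 ratios rise in 4 of 4 pairs from control to mimic and the third falls in 4 of 4, and the groups overlap in all 3.

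Levels of different genes were set side by side per length, which makes them comparable only in part. MT-ND4L and MT-ND4 lie on one mRNA, yet had 62.8 and 120.1 CPM per kilobase in the control and 52.0 and 99.8 with the mimic. The cause of this gap was not tested, and the orders below describe counts per length and not amounts of mRNA. Per kilobase of annotated transcript, MT-ND3 was highest in the control at 165.1 ± 51.3 CPM per kilobase (SD, n = 4), followed by MT-ND4 at 120.1 ± 28.5. MT-ND1 (83.0 ± 8.70), MT-ND6 (80.1 ± 18.03), MT-ND2 (76.2 ± 4.20), MT-ND5 (68.6 ± 12.8) and MT-ND4L (62.8 ± 9.30) came after, and the library values of each gene overlapped those of the next in this order. With the mimic the order was MT-ND3 (120.0 ± 10.8 CPM per kilobase), MT-ND4 (99.8 ± 17.4), MT-ND6 (69.3 ± 12.6), MT-ND1 (56.2 ± 4.76), MT-ND4L (52.0 ± 8.01), MT-ND5 (51.3 ± 5.00) and MT-ND2 (49.6 ± 3.52). There the values of MT-ND4 and MT-ND6 did not overlap, and all other neighbours did. The counts per length of MT-ND6 thus lay within the range of the heavy-strand members in both groups. They could include opposite heavy-strand precursor, since it is not given whether counting used the strand.

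**Figure D4:**
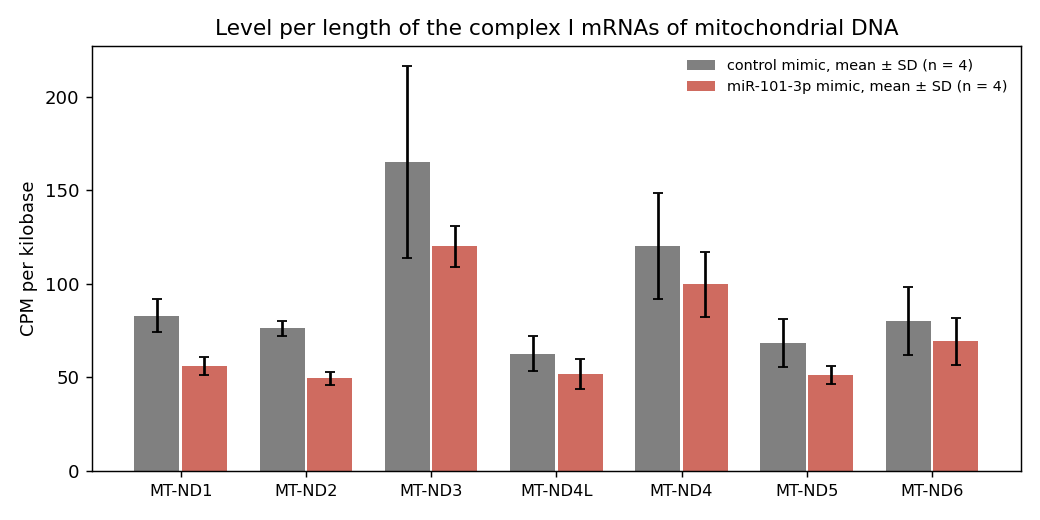
Level per length (CPM per kilobase of annotated transcript, y axis from 0) of the 7 complex I mRNAs, as mean ± SD of 4 libraries in each group. MT-ND3 and MT-ND4 have the highest means in both groups, and MT-ND2 is rank 5 of 7 in the control and rank 7 with the mimic.

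The other 6 mRNAs of mitochondrial DNA encode subunits of complexes III, IV and V, and 5 of the 6 fell (MT-CO1, MT-CO2, MT-CO3, MT-ATP6 and MT-CYB), beside 3.32% of all tested genes, with log2 fold changes from -0.76 (MT-CO3) to -0.47 (MT-ATP6 and MT-CYB). MT-ATP8 had a log2 fold change of -0.36 (edgeR adjusted p = 0.136). When the 8 libraries were left out one at a time, MT-CO2 was called every time, while MT-CO1, MT-ATP6, MT-CO3 and MT-CYB missed the threshold in 4 to 7 of the fits. With replicates 1 and 2 summed none of the 5 was called, at edgeR adjusted p from 0.116 (MT-CO2) to 0.206 (MT-CYB). The median of the 6 was -0.52, against -0.42 for the complex I members. Counts of the 7 complex I mRNAs came to 30.5, 34.1, 25.2 and 29.1 per 100 counts of the other 6 in mimic replicates 1 to 4, and to 27.2, 25.8, 21.4 and 25.0 in the control. The value was higher with the mimic in 4 of 4 pairs, by 0.25 ± 0.117 on the log2 scale, and the groups overlapped. It was not tested, since it is a sum over members chosen with results known.

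Ribosomal and transfer RNAs of mitochondrial DNA did not pass the test. None of 7 with a row (2 ribosomal RNAs and 5 tRNAs) was called by edgeR, DESeq2 or limma-voom, or had an unadjusted edgeR p under 0.05. Their log2 fold change was negative in 6 of 7, beside 50.7% of all tested genes, with a median of -0.21. MT-TP had the smallest p (log2 fold change -0.33 ± 0.254, edgeR adjusted p = 0.475). MT-TW came next (-0.35 ± 0.402, edgeR adjusted p = 0.651). The SE reached 0.532 (MT-RNR1), and MT-TA had 8 to 12 counts per library. A fall the size of that of MT-ND1 or MT-ND2 could therefore go uncalled here. MT-RNR1, the RNA of the small ribosomal subunit, ran from 27.5 to 196.5 CPM within the control group and from 71.8 to 170.5 CPM with the mimic. The library chemistry removes ribosomal RNA, so these values hold what was left after that step. MT-RNR1 was lowest in control replicate 4, the library that was also lowest among controls in 5 of the complex I mRNAs, and the part of rRNA removal in those levels was not tested.

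Nuclear genes of complex I were not called by edgeR. Of 37 nuclear subunits in the list, 34 had a row, and none was called in either direction (4 lower and 0 higher at an unadjusted edgeR p under 0.05, median log2 fold change -0.08). At that threshold 1731 of all 15905 tested genes were lower and 1808 higher. The 4 lower of 34 thus lay near the share lower among all genes. The log2 fold change was negative in 29 of the 34, beside 50.7% of all tested genes. Limma-voom also called none, and DESeq2 called 1 lower, NDUFA8 (DESeq2 adjusted p = 0.0262). In edgeR NDUFA8, an accessory subunit, was also the nearest to the threshold, at 15.6 ± 2.27 against 21.4 ± 2.16 CPM (SD, n = 4 each; log2 fold change -0.45 ± 0.136, edgeR adjusted p = 0.0742), followed by NDUFB4 (-0.22 ± 0.092, edgeR adjusted p = 0.185). Among 20 complex I assembly factors none was called by edgeR, DESeq2 or limma-voom (1 lower at an unadjusted edgeR p under 0.05, median -0.05), and the smallest p-values were those of COA1 (log2 fold change -0.25, edgeR adjusted p = 0.146) and TIMMDC1 (0.15, edgeR adjusted p = 0.367). Counts of the 7 mitochondrial members per 100 counts of the 34 nuclear subunits were 19.1, 19.2, 16.1 and 16.0 with the mimic and 25.8, 21.7, 21.8 and 18.2 in the control. They were lower in 4 of 4 pairs, by 0.31 ± 0.128 on the log2 scale, with mimic replicates 1 and 2 inside the control range.

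Factors that make or handle mitochondrial RNA held 1 gene called by edgeR. In the list of 9 transcription factors of mitochondrial DNA this was TFB2M, which opens the promoters for the mitochondrial RNA polymerase. It fell 2.55-fold, from 48.1 ± 0.676 to 18.9 ± 2.59 CPM (SD, n = 4 each), with a log2 fold change of -1.35 ± 0.114 (SE) and an edgeR adjusted p of 0.000542 (0.0129 with replicates 1 and 2 summed). The polymerase gene POLRMT had a log2 fold change of 0.05 (edgeR adjusted p = 0.872), and the packaging and initiation factor TFAM one of 0.27 (edgeR adjusted p = 0.104), which DESeq2 called higher (DESeq2 adjusted p = 0.026). MTERF4 had a log2 fold change of 0.42 ± 0.137 (edgeR adjusted p = 0.0987) and was not called by DESeq2 or limma-voom. At an unadjusted edgeR p under 0.05 the list held 1 lower and 2 higher, beside 1731 lower and 1808 higher of all 15905 tested genes. The list's median was 0.05, with 2 of 9 negative. Of 20 genes of mitochondrial RNA processing and stability none was called by edgeR, DESeq2 or limma-voom (1 lower and 1 higher at an unadjusted edgeR p under 0.05, median -0.03). The smallest p-values there were those of FASTKD5, an RNA-binding factor of mitochondrial RNA processing (log2 fold change -0.27 ± 0.095, edgeR adjusted p = 0.126), and REXO2, an exonuclease of short RNA fragments (0.22 ± 0.096, edgeR adjusted p = 0.218).

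Among genes outside mitochondrial DNA, those whose profile was most like the mean of the 7 members were SEL1L, TSPAN15, ZNF365, CSMD2 and ATXN7L1. Likeness was the mean absolute difference, over the 8 libraries, between centred log2 CPM profiles. It was 0.046 to 0.069 for these 5 and 0.304 for the median gene. None of the 5 was called (edgeR adjusted p from 0.111 to 0.35). Of the members, MT-ND5 (0.080, rank 9 of all tested genes) and MT-ND4L (0.086, rank 24) lay closest to the mean profile and MT-ND3 farthest (0.174, rank 1104). Each member is itself part of that mean, which favours its rank over genes outside it.

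The calls of MT-ND1 and MT-ND2 were repeated in other fits. Blocking on the replicate number kept the count at 2 of 7, beside 4.99% of all tested genes called lower. DESeq2 also called 2 of 7 (beside 5.58%), as did limma-voom (beside 3.19%). Leaving out mimic replicate 1 or 2 left MT-ND2 alone (beside 1.42 and 1.45%), where MT-ND1 had an edgeR adjusted p of 0.0545 and 0.0524. Leaving out control replicate 4 gave 4 of 7 (beside 4.7%), with MT-ND3 and MT-ND5 added. Summing replicates 1 and 2 to 1 sample per group left none of the 7 called (beside 0.421%), at an edgeR adjusted p of 0.0588 for MT-ND2 and 0.114 for MT-ND1.

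Replicates 1 and 2 alone gave 7 of 7 called lower, beside 16.4% of all tested genes, and replicates 3 and 4 alone gave 0 of 7, beside 0%. Whether replicates 1 and 2 came from separate cultures is not given for single libraries. If they did not, the p-values of the fit on them alone are too small. The log2 fold changes lay near each other in both sets for most members. MT-ND2 had a log2 fold change of -0.61 in replicates 1 and 2 and -0.63 in replicates 3 and 4, MT-ND4 -0.26 and -0.28, and MT-ND6 -0.26 and -0.15. MT-ND3 differed more, at -0.74 and -0.16. Whether the sets differ was not tested. In each of the 17 alternative fits all 7 log2 fold changes stayed negative, MT-ND2 between -0.66 and -0.58 and MT-ND6 between -0.31 and -0.08.

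**Figure D5:**
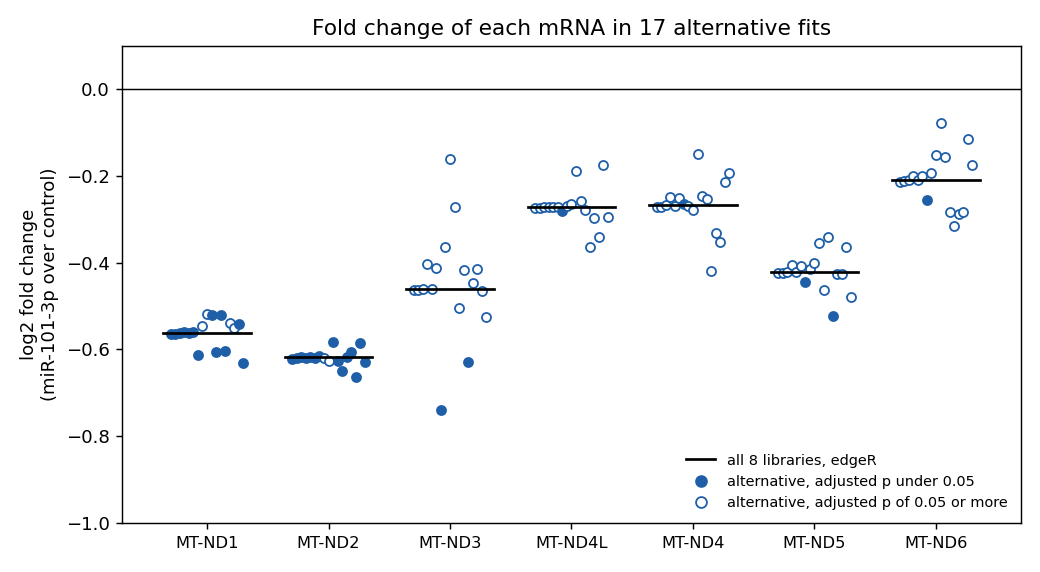
Log2 fold change (miR-101-3p over control) of each complex I mRNA in 17 alternative fits (points, filled at an adjusted p under 0.05) beside edgeR on all 8 libraries (line). All points lie below 0, MT-ND2 is filled in 15 of 17 and MT-ND1 in 13 of 17, and MT-ND3 spreads most.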

How the data were processed

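The deposited values are read counts per gene symbol in 8 libraries, not normalised, as the whole numbers in the authors' table show. The submitters' processing notes name TopHat2 2.0.14, StringTie 1.2.4, bcl2fastq 2.18.0.12 and the build hg38, with no order. Which tool counted, with which annotation and whether by strand, is not given in the sources used here. Columns were matched to samples by the labels' descriptions.

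All genes were tested with edgeR 4.0.16 (R 4.3.3) after filterByExpr and TMM scaling, using glmQLFit and glmQLFTest with group alone in the model, and p-values were adjusted by Benjamini-Hochberg over 15905 genes. CPM use TMM-scaled library sizes. Ratios within a library used no pseudocount and two-sided exact permutation tests (scipy 1.17.1). On counts simulated for 15719 genes of this comparison, edgeR recovered 89% of 2-fold and 20% of 1.5-fold changes, with 9 false calls. The changes were set only in genes above a minimum mean CPM. All libraries were drawn independently, so the closeness of replicates 1 and 2 was not simulated and these shares may not hold for the data. The members and gene lists were chosen with earlier results of these data known. Named were all members, the other mRNAs of mitochondrial DNA, EZH2, called list genes (or the 2 with the smallest p), and the 5 most similar profiles. The naming of POLRMT, TFAM, MTERF4, MT-RNR1, MT-TI and the nuclear copies other than that of MT-ND2 followed a look at the values.

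Whether replicate numbers pair libraries was checked: the correlations over genes of their deviations from group means were 0.328, 0.426, 0.185 and 0.209 for replicates 1 to 4, all over 0.1. Mimic replicate 1 correlated more with control replicate 2 (0.372) and mimic replicate 4 more with control replicate 3 (0.391), so the pairing comes from the numbers and not from a best match. Alternatives were other scaling (RLE), no filter, robust dispersion, DESeq2 1.42.0, limma-voom (limma 3.58.1), the block, each library left out, and replicates 1 and 2 summed, alone or left out. Gene positions and transcripts are from GENCODE 29, and the microRNA sequence is from RefSeq (GRCh38).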

Additional observations from a re-analysis of the deposited data

Results flagged for a closer look

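The log2 ratio of MT-ND1 and MT-ND2 counts to those of MT-ND4L, MT-ND4 and MT-ND5 had 1 library far from the others in the control group. It was -1.10, -1.03, -1.06 and -0.55 in control replicates 1 to 4, so that the gap of replicate 4 made up 0.866 of the group's range, above Dixon's 95% critical value for 4 samples. With the mimic it was -1.39, -1.32, -1.11 and -1.04. The ratio was lower with the mimic in 4 of 4 pairs, by 0.28 ± 0.152 (SE) on average, and was chosen after the data were seen. Of 38 groups screened this was the 1 with a library past the limit, and chance passes about 1 in every 20 groups.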

How the results depend on the processing

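Of the 7 complex I mRNAs, 2 were called lower, and the count was the same with RLE scaling, no filter, robust dispersion, DESeq2, limma-voom and the replicate block. The block changed no member's call. For the log2 ratio of MT-ND6 to the heavy-strand members it could not move the difference of 0.203. With 4 full pairs the mean of the pair differences equals the difference of the group means. The count was 1 to 4 in the fits that left out 1 library (1 without mimic replicate 1 or 2, 4 without control replicate 4), 0 with replicates 1 and 2 summed, 7 with replicates 1 and 2 only and 0 with replicates 3 and 4 only. All these fits hold fewer libraries than the main fit, but those on replicates 1 and 2 only and on replicates 3 and 4 only hold equal numbers. The SD over genes of the log2 difference was 0.256 (mimic) and 0.28 (control) between replicates 1 and 2. Between replicates 3 and 4 it was 0.422 and 0.62. The cause of the unlike counts was not tested. Over all alternatives no log2 fold change of a member changed sign. Of 119 member values under an alternative, 106 stayed on the same side of the threshold, 6 lost a call and 7 gained one. For MT-ND6 over the heavy-strand members the difference ran from 0.05 (MT-ND4 alone as denominator) to 0.42 (MT-ND2 alone), and from 0.10 to 0.27 when 1 library was left out. The block (smallest possible p 0.125), the summed replicates (0.1) and the fits without 1 library (0.0571) could not pass the threshold, so their p-values say nothing about stability. The 9 other denominators, which could, gave p from 0.0571 to 0.686. RLE scaling moved the median of all genes from -0.005 to -0.007 on the log2 scale. Depth limits MT-ND4L most, at a mean of 321.5 counts per library.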

Other observations

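Nuclear copies of other mitochondrial genes lie next to the copy of MT-ND2 on chromosome 1. MTCO1P12 (631074 to 632616) is identical to MT-CO1 at 98.7% of 1542 aligned bases, and MTATP6P1 (633696 to 634376) to MT-ATP6 at 98.5% of 681. Their log2 fold changes were -0.46 ± 0.186 (edgeR adjusted p = 0.175) and -0.54 ± 0.137 (edgeR adjusted p = 0.0415, and 0.25 with replicates 1 and 2 summed), beside -0.67 for MT-CO1 and -0.47 for MT-ATP6. How far the counts of a copy and of its mitochondrial gene come from the same reads was not tested.

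The 2 ribosomal RNAs varied more between libraries than the complex I mRNAs did. On the log2 scale the ratio of their counts to those of the 7 mRNAs was -0.72, -1.12, -0.73 and 0.05 in mimic replicates 1 to 4 and -0.30, -1.996, -0.26 and -2.22 in the control. MT-TI, the tRNA gene next to MT-ND1, was highest in mimic replicate 4 (11.8 CPM) and control replicate 3 (9.93 CPM), and lay between 3.30 and 5.05 CPM in the other 6 libraries.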
